A study of Mus musculus with 46 samples.

Results

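The clustered protocadherins are cell adhesion proteins of the cadherin family, encoded in 3 neighbouring gene clusters (alpha, beta and gamma) on mouse chromosome 18. They were taken here as the protein-coding genes of the GENCODE vM1 annotation of the mm9 genome whose symbols start with Pcdha, Pcdhb or Pcdhg on that chromosome, which gave 24 genes of 22380. Because the annotation places 9 alpha isoforms under the symbol Pcdha11 and 9 gamma isoforms under Pcdhgc5, the unit of measurement was the variable exon, of which there were 40. These were 8 alpha exons, 21 beta exons, 6 exons of the gamma A and B types and 5 C-type exons (Pcdhac1, Pcdhac2, Pcdhgc3, Pcdhgc4 and Pcdhgc5).

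Each variable exon has a promoter of its own and encodes the extracellular part, the membrane segment and a short intracellular part of 1 isoform. In the alpha and gamma clusters the transcript is spliced to shared constant exons at the end of the cluster, whereas beta genes have none. Neurons choose alpha, beta and gamma A/B promoters in a largely random way, with the help of CTCF and cohesin, which gives each neuron its own surface code. C-type isoforms are expressed more uniformly across cells. In the 300 bp before the variable exons the median GC content was 63.7% for C-types, 38.0% for alpha, 44.0% for beta and 47.3% for gamma A/B exons. The 4-letter word CGCT is part of a promoter element conserved in many of these genes. It occurred there on either strand in all 40, and in 69.2% of 493 other genes of the chromosome. A word this short is common, so finding it does not show that the element is present. H3K4me3 is a histone mark of active or poised promoters, H3K36me3 is laid down over transcribed gene bodies, and H3.3 is a histone variant placed independently of DNA replication at promoters, enhancers and transcribed genes.

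The binding of all 3 was measured by ChIP-Seq in mouse embryonic fibroblasts (MEFs), converted in 1 of 2 ways. The study derived its MEFs from embryos with an IRES-EGFP reporter at Oct4, and removed cells with blood surface markers before transdifferentiation. Retroviral Oct4, Sox2, Klf4 and c-Myc drove reprogramming, sampled at day 0 (D0), day 3 (D3), day 6 and day 9 after sorting for Thy-1, a fibroblast surface protein (D6T-, D9T-, and the refractory D6T+, D9T+), day 12 and day 16 after sorting for SSEA-1, an early pluripotency antigen (D12S+, D16S+, and the refractory D12S-, D16S-), and in induced pluripotent stem cells (iPSCs), with the embryonic stem cell line ESD3 beside them. Retroviral Scl, Lmo2, Runx1 and Bmi1 (SLBR) with OP9 stromal co-culture drove transdifferentiation towards blood progenitors, sampled in untreated MEFs (MEF), at day 4 (D4) and after sorting for cKit, a progenitor receptor (cKit+, cKit-). H3.3 was mapped in all 16 of these populations, and H3K4me3 and H3K36me3 in the 7 of the route D0, D3, D6T-, D9T-, D12S+, D16S+ and iPSCs. Each population had 1 library per antibody, so no test between populations was possible, and D0 against MEF, fibroblasts before either conversion, gauged the difference between separate libraries. The populations were measured in bulk, where fewer marked cells and less signal per cell cannot be told apart.

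The libraries held 13.2 to 91.8 M tags, and their enrichment differed more than their depth. The share of tags within peaks ran from 1.65% (cKit+) to 37.2% (D4) for H3.3, from 3.71% (D16S+) to 34.8% (D6T-) for H3K4me3 and from 1.07% (D12S+) to 42.4% (D9T-) for H3K36me3. D16S+, cKit+ and cKit-, and the H3K36me3 libraries of D12S+, D16S+ and iPSCs, thus stood apart as weakly enriched, and an exon without a peak in them is no evidence of absence. As a check of the labels, H3.3 peaks lay over the gene bodies of 6 of 6 fibroblast markers in D0 and MEF, 2 of 6 in iPSCs and 0 of 6 in ESD3. They lay over 2 of 6 pluripotency markers in D0, 6 of 6 in iPSCs and 5 of 6 in ESD3. For blood markers the counts were 5 of 6 in D0 and 4 of 6 in both cKit+ and cKit-, so these markers did not set the cKit+ cells apart. For neural markers, cells in which these clusters are best known, they were 3 of 5 in D0 and iPSCs and 4 of 5 in ESD3, and for epithelial markers 3 of 4, 4 of 4 and 3 of 4. Of all gene bodies 57.8% held an H3.3 peak in D0, 48.4% in MEF, 57.1% in iPSCs, 46.9% in ESD3, 29.7% in cKit+ and 27.8% in cKit-.

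Values are normalized tag counts, the tags of a peak scaled to 10 M tags per library and, for a peak that reaches past an exon, shared out by length. They are called tags below, and the route order is D0, D3, D6T-, D9T-, D12S+, D16S+, iPSCs. Intervals are 95% exact Poisson intervals and cover counting error only.

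At the deposited threshold, H3K4me3 spread over more exons in iPSCs than in fibroblasts. In D0, 20 of 40 variable exons carried an H3K4me3 peak, against 36 of 40 in iPSCs (90.0%, 95% Wilson interval 76.9 to 96.0%). Among the start windows of all genes, the first 2500 bp from the annotated start, 64.3% carried a peak in D0 and 62.7% in iPSCs. For the exons of D0, at 50.0%, the Wilson interval of 35.2 to 64.8% includes the value for genes, while that of iPSCs lies above it. From D0 to iPSCs, 17 exons gained a peak and 1 (Pcdhga8) lost it, equal to 42.5% and 2.50% of the exons, whereas 2.57% of gene starts gained and 4.21% lost one. The gained peaks lay over 5 alpha exons (Pcdha1, Pcdha2, Pcdha3, Pcdha4 and Pcdha9) and 12 beta exons (Pcdhb2 to Pcdhb11, Pcdhb13 and Pcdhb14).

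**Figure D1:**
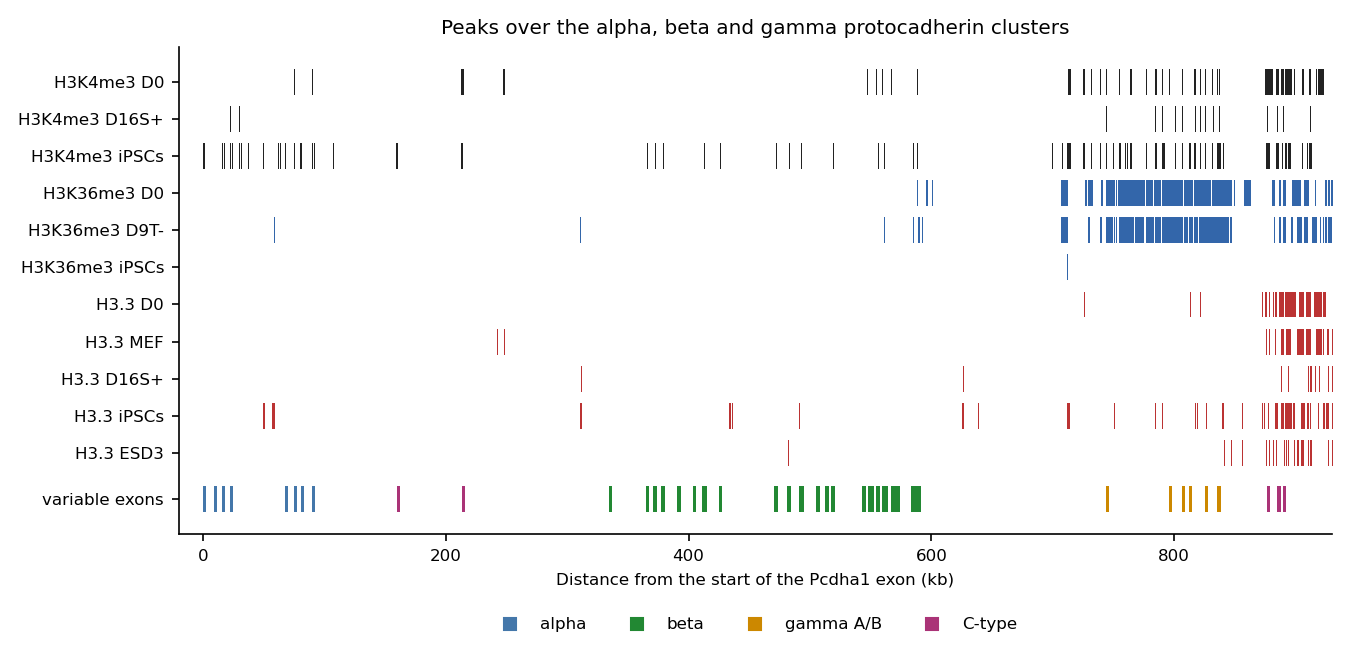
Peaks of H3K4me3 (black), H3K36me3 (blue) and H3.3 (red) along the 3 clusters in selected libraries, with distance from the start of the Pcdha1 exon in kb on the x axis and the variable exons coloured by class at the bottom. H3K4me3 in iPSCs runs through all 3 clusters, H3K36me3 in D0 and D9T- fills the gamma A/B stretch, and H3.3 gathers at the right end, over the gamma C-type and constant exons.

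At that threshold the intermediates did not lie between these ends. From D3 to D16S+, in route order, H3K4me3 peaks covered 10, 12, 10, 17 and 8 exons. The matching shares of all gene starts were 62.9%, 63.9%, 62.9%, 60.5% and 42.4%. From D0 to D3 alone, 10 of the 20 exons with a peak lost it, 25% of all 40 exons, and none gained one. Of all gene starts, with or without a peak, 2.12% lost and 0.715% gained one. From D16S+ to iPSCs 28 exons gained a peak, and 20.9% of gene starts did, with 0.626% losing one. The peaks lost from D0 to D3 were weak, since 9 of the 10 exons had held 12.1 tags or fewer in D0 and Pcdhgc5 22.4 tags. With the same number of top-scoring peaks from every library (19633), the course differed. D0 and D3 then had 4 exons each, D6T- and D9T- 3 each, D12S+ 10, D16S+ 8 and iPSCs 19. D12S+ and D16S+ thus lay between the ends. Gene starts made up 60.8%, 60.9%, 59.9%, 59.9%, 58.5%, 42.4% and 58.9% in route order.

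Gene by gene, 14 exons had an H3K4me3 peak in iPSCs and in none of the 6 earlier libraries. No library held one over Pcdhb12 or Pcdhb15, and Pcdhb1 held one in D12S+ alone, at 9.51 tags. In D0 the peak over Pcdhb21 was that of the neighbouring Pcdhb22 start, which reaches into its last bases. In iPSCs all 8 alpha exons were covered, from 7.77 tags at Pcdha2 to 28.1 tags at Pcdha12, as were 18 of 21 beta exons, from 5.79 tags at Pcdhb5 to 21.7 tags at Pcdhb22. These are low levels. The median over the exons with a peak was 13.96 tags in iPSCs and 10.2 tags in D0, whereas the median gene start with a peak held 37.1 tags in iPSCs and 100.0 tags in D0.

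**Figure D2:**
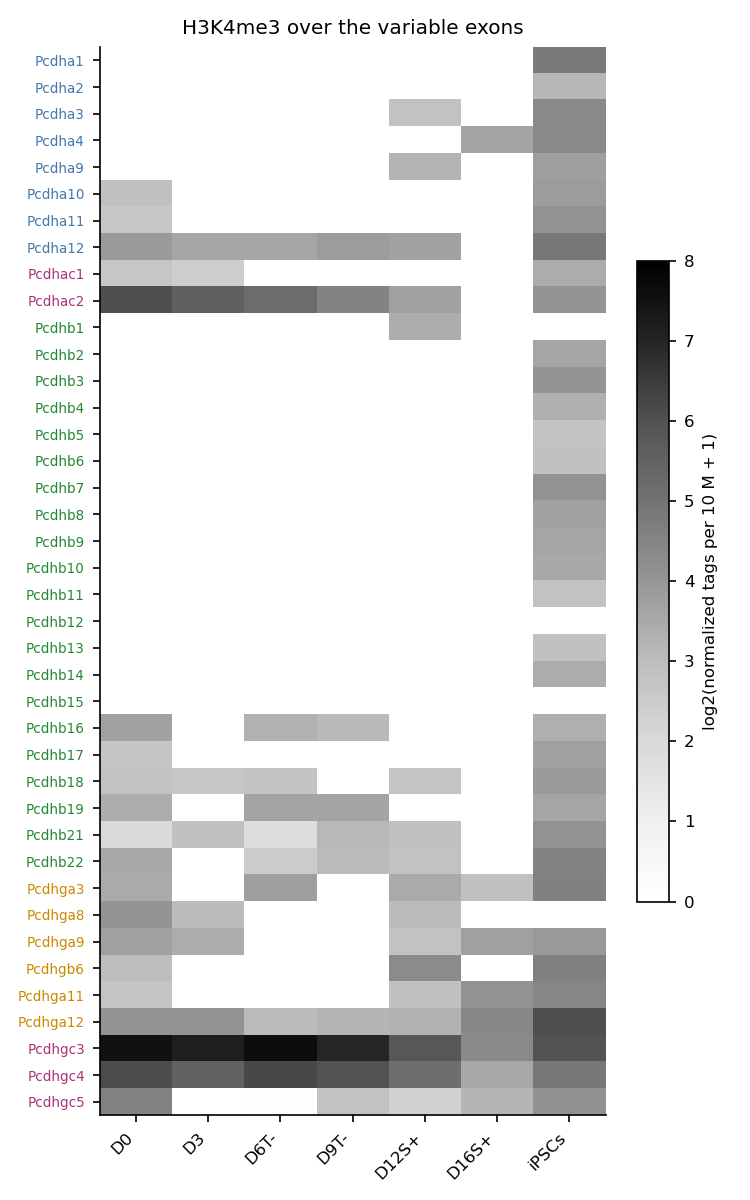
H3K4me3 over each of the 40 variable exons (rows, names coloured by class as in the map) in the 7 libraries of the route (columns), as log2(normalized tags per 10 M + 1), white standing for no peak. Pcdhgc3, at 183.6 tags in D0, is darkest on the left, and the iPSC column is filled but for Pcdhb1, Pcdhb12, Pcdhb15 and Pcdhga8.

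Some C-type exons followed another course than the alpha and beta exons. Pcdhgc3 (chromosome 18, 37966064 to 37968631, mm9), an isoform known to bind the Wnt pathway scaffold Axin1, held the highest H3K4me3 of all exons in D0, with 183.6 tags (168.3 to 199.7). Its later values in route order were 143.5, 199.3, 124.7, 56.2, 19.6 and, in iPSCs, 61.2 tags (53.4 to 70.0). Pcdhgc4 (37974733 to 37977637), which is required for the survival of many interneurons, held 68.4, 43.9, 72.9, 62.9, 34.3, 10.4 and 28.3 tags in route order. Both were thus high in fibroblasts and the first sorted fractions and lowest in D16S+.

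Pcdhac2 (37303623 to 37306184), the isoform that serotonergic neurons use, was highest in D0 at 65.8 tags, followed in route order by 45.8, 35.6, 21.9, 12.45, no peak and 15.6 tags. Pcdhac1 had weak peaks of 5.30 tags in D0, 4.26 in D3 and 9.82 in iPSCs. Pcdhgc5 (37979200 to 37981788) held 22.4 tags in D0, no peak in D3, the edge of a peak with 0.06 tags in D6T-, and then 6.00, 3.85, 8.22 and 16.7 tags. All 5 C-type exons had a peak in D0 and in iPSCs.

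Among gamma A/B exons, Pcdhga12 (37925234 to 37928194), the last before the C-types, was the only one with a peak in all 7 libraries. It held 15.8 tags in D0 (11.5 to 21.0), then in route order 15.8, 7.33, 8.16, 8.65 and 19.9 tags, and 65.85 in iPSCs (57.7 to 74.9), where it was the highest exon, its interval overlapping that of Pcdhgc3. Pcdhgb6 was at 6.85 tags in D0 and 23.6 in iPSCs, and Pcdhga11 at 5.60 and 20.8.

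Levels between D0 and iPSCs differed in opposite directions for the exons and for genes at large. Over the 18 exons whose own 2500-bp window had a peak in both, the median log2 difference (iPSCs minus D0) was 1.05, with 10 exons at least 2-fold higher and 3 at least 2-fold lower. Over the 13455 gene starts with a peak in both it was -1.36, with 0.94% at least 2-fold higher and 74.2% at least 2-fold lower. The D0 library had 30.4% of its tags in peaks and the iPSC library 12.7%, and that difference moves with the second value.

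The call depended on the threshold. Peaks had been kept at a fold over input of at least 4. With at least 8, 9 exons remained in D0 and 5 in iPSCs, so the order turned, while gene starts with a peak went to 59.9% and 24.7%. The exons called in iPSCs at that limit were Pcdha12, Pcdhb2, Pcdhb5, Pcdhb16 and Pcdhb19. With the same number of top-scoring peaks from every library (19633), 19 exons remained in iPSCs and 4 in D0 (Pcdhac2, Pcdhgc3, Pcdhgc4 and Pcdhgc5), against 58.9% and 60.8% of gene starts. The fold of the exons with a peak had a median of 6.86 in D0 and 5.53 in iPSCs.

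**Figure D3:**
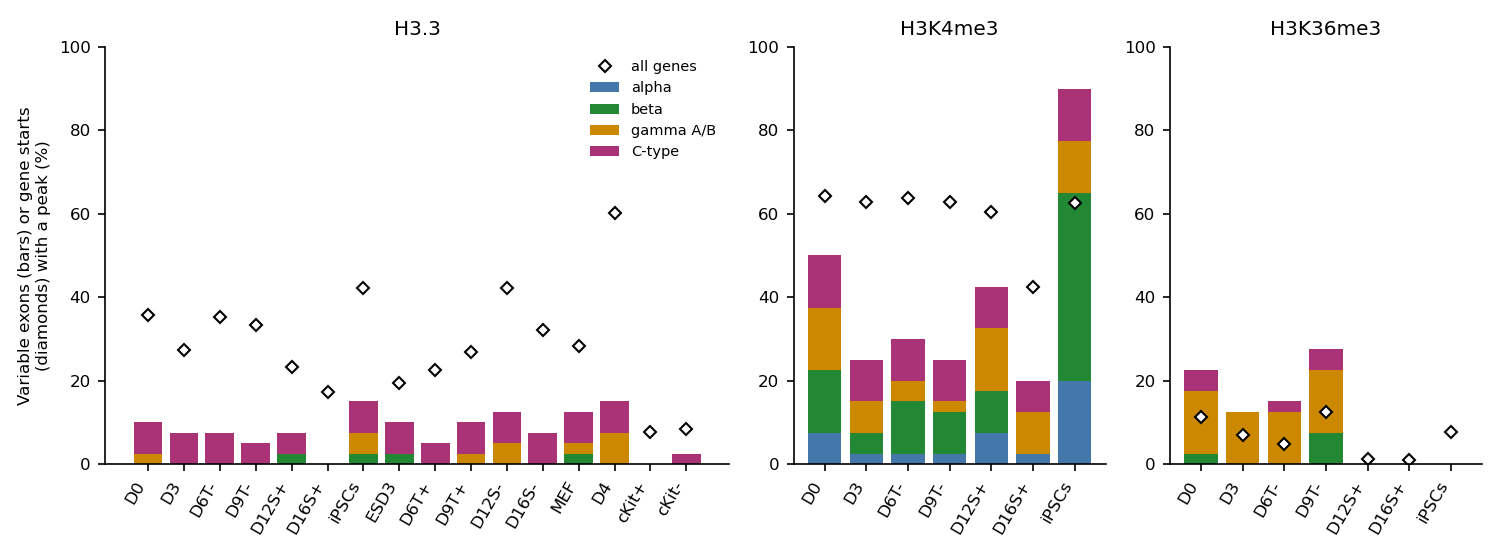
Share of the 40 variable exons with a peak (stacked bars, by class, in %) and share of all gene starts with a peak in their first 2500 bp (diamonds, in %) for each library of H3.3, H3K4me3 and H3K36me3. For H3.3 every bar stays below its diamond, and for H3K4me3 the iPSC bar alone rises above it, at 90.0% against 62.7%.

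Within the exons, H3K4me3 sat at different places in fibroblasts and iPSCs. This was examined after the values had been seen, by splitting each exon into a start part (the first 1000 bp from the first coding base) and a later part of equal length that begins 250 bp after it. In D0, 19 exons had a peak in the start part and 3 in the later part. In iPSCs, 18 had one in the start part and 27 in the later part, of which 18 had it there alone. Between D3 and D16S+ the later part was covered in 1 to 5 exons. Over all genes, the same distances from the gene start gave 63.2% and 47.9% in D0 and 61.4% and 37.3% in iPSCs.

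The pattern split by class. In iPSCs the start part was covered in 7 of 8 alpha exons and the later part in 5, whereas in the beta cluster the later part was covered in 18 of 21 exons and the start part in 1 (Pcdhb22). In D0 the counts for beta were 5 in the start part and 0 in the later part. The beta peaks of iPSCs had a common position, as seen at Pcdhb7, where the peak ran from 1349 to 2352 bp after the first coding base with 16.1 tags, and at Pcdhb3, where it ran from 1351 to 2284 bp with 15.7 tags. Pcdhb16 showed the shift in 1 gene, with a D0 peak centred 87.5 bp and an iPSC peak centred 1764 bp after the first coding base. Pcdha12 had a pair of iPSC peaks, at -117 to 671 bp with 19.2 tags and at 1515 to 2485 bp with 13.0 tags.

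**Figure D4:**
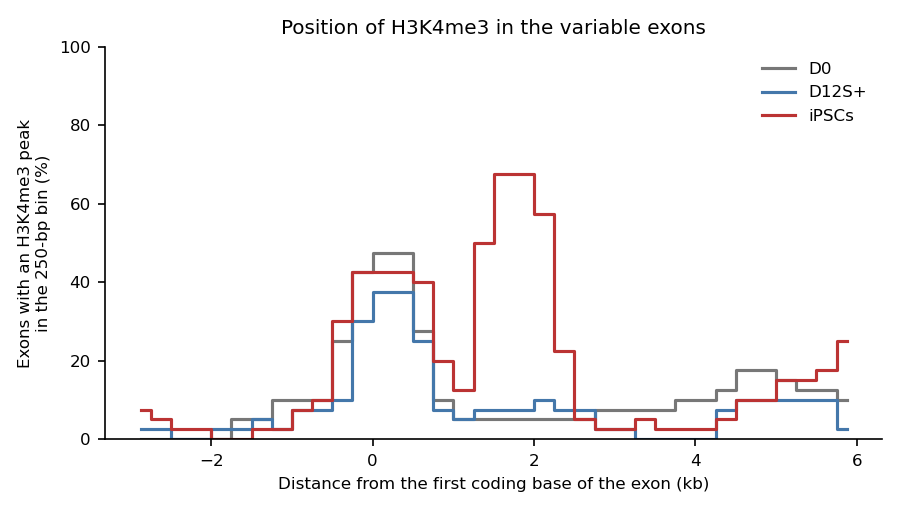
Percentage of the 40 variable exons with an H3K4me3 peak in each 250-bp bin (y axis) against the distance from the first coding base in kb (x axis) in D0 (grey), D12S+ (blue) and iPSCs (red). All 3 libraries have a hump at the coding start, and iPSCs alone have a further, higher one inside the exon, reaching 67.5%.

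The 2 parts also differ in their sequence. In beta exons the median GC content was 47.5% in the start part and 58.6% in the later part, with 19.0 and 41.0 CpG dinucleotides per kb. In alpha exons these were 49.55% and 59.55% GC, with 41.0 and 65.5 CpG per kb. Gamma A/B exons had more CpG in the start part, 48.0 against 31.0 per kb, and C-types 41.0 against 26.0. Isoforms of a class also share stretches. A median of 7.68% of the 50-base words in the later part of beta exons occur more than once in the clusters, against 0 in their start part, where single exons reach 26.1%. For alpha exons the medians were 16.7% in the start part and 18.9% in the later part, and for gamma A/B exons 3.05% and 0. Tags that mapped to more than 1 locus had been removed. The part of base composition and of such stretches in the peaks was not tested. At a fold of at least 8 the later part was covered in 4 exons of iPSCs and 2 of D0, and with 19633 peaks in 8 and 2.

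Beyond the exons, H3K4me3 covered, in route order, 42.5, 24.8, 32.5, 25.9, 31.1, 11.2 and 66.6 kb of the 3 clusters. The tag sums were 1286 (1246 to 1328), 764, 1076, 725, 518, 205 and 1220 (1184 to 1257). D0 and iPSCs thus held a similar sum spread over different lengths. In D0, 79.7% of it lay in the gamma cluster and 51.7% over the gamma C-type and constant exons, against 58.7% and 17.7% in iPSCs. The alpha cluster (37089939 to 37347311) was covered over 6.10 kb in D0 and 17.1 kb in iPSCs, and the beta cluster (37424652 to 37681073) over 3.445 and 13.98 kb. At a fold of at least 8 the covered length was 17.2 kb in D0 and 6.07 kb in iPSCs, again the other order.

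H3.3 was far sparser. Of 40 exons, 29 had no H3.3 peak in any of the 16 libraries. These included all 8 alpha exons, Pcdhac1 and Pcdhac2. In route order the counts were 4, 3, 3, 2, 3, 0 and 6, with 4 in ESD3. Gene starts with an H3.3 peak made up 35.7%, 27.4%, 35.3%, 33.3%, 23.3%, 17.2%, 42.3% and 19.4% in the same order, so 10.0% of the exons in D0 and 15.0% in iPSCs lay well below the genes. The refractory fractions D6T+, D9T+, D12S- and D16S- gave 2, 4, 5 and 3, against 22.5%, 26.9%, 42.1% and 32.1% of gene starts. In transdifferentiation there were 5 in MEF, 6 in D4, 0 in cKit+ and 1 in cKit-, against 28.4%, 60.1%, 7.67% and 8.37%.

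Outside the gamma C-types, 8 exons had an H3.3 peak in any library, and 5 of them in only 1. These 5 were Pcdhb10 in ESD3 (8.56 tags), Pcdhb11 in iPSCs (8.50), Pcdhb17 in MEF (5.89), Pcdhb22 in D12S+ (9.55) and Pcdhga8 in MEF (5.03). Pcdhgb6 had one in 4 libraries, at 6.12 tags in D0, 10.2 in D9T+, 9.15 in D12S- and 5.0 in D4. Pcdhga11 had one in iPSCs (9.60), D12S- (6.14) and D4 (29.2), and Pcdhga12 in iPSCs (5.22) and D4 (9.26).

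The gamma C-type exons carried the rest. Pcdhgc3 had an H3.3 peak in 13 of 16 libraries, Pcdhgc4 in 13 and Pcdhgc5 in 11. Some of these calls share a peak, as Pcdhgc4 and Pcdhgc5 did in D0 (3697 bp) and D4 (17665 bp). Others are the edge of a peak centred outside the exon, as at Pcdhgc4 in D12S+ and Pcdhgc5 in D6T-. At Pcdhgc3 the levels were 20.3 tags in D0 (15.4 to 26.6), 17.8 in D3, 20.1 in D6T- and 9.58 in D9T-. D12S+ and D16S+ had no peak, iPSCs held 17.1 tags (13.3 to 21.5) and ESD3 7.20. In the refractory fractions, in the order above, they were 6.28, 11.8, 24.4 and 20.9 tags. In transdifferentiation they were 11.9 in MEF (9.06 to 15.6), 42.6 in D4, no peak in cKit+ and 5.91 in cKit-. The SSEA-1-positive fractions thus lacked a peak that their SSEA-1-negative counterparts held, but D12S+ and D16S+ had 6.93% and 4.88% of their tags in peaks against 21.96% and 12.2%. In route order Pcdhgc4 held 19.2, 9.24, 5.15, 4.48, 0.58, no peak and 12.35 tags, with 2.10 in ESD3. Pcdhgc5 held 27.2, 20.9, 1.00, no peak, 7.50, no peak and 12.6 tags, with 14.1 in ESD3. D9T- had a peak over Pcdhgc3 and Pcdhgc4 only. Because of the shared peaks and edges, these values do not give separate courses for the 3 exons.

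**Figure D5:**
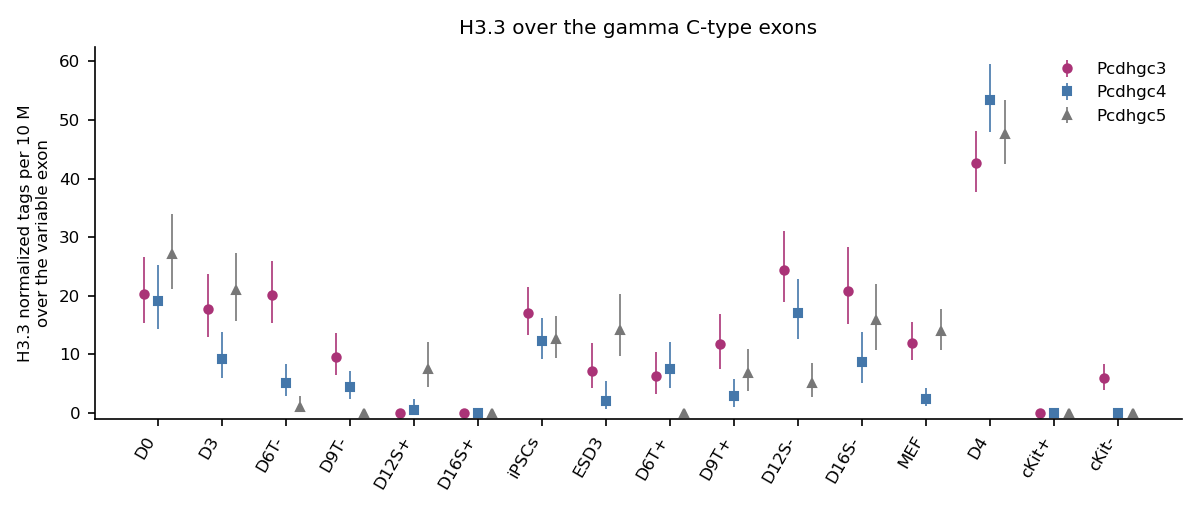
H3.3 normalized tags per 10 M (y axis) over Pcdhgc3 (circles), Pcdhgc4 (squares) and Pcdhgc5 (triangles) in the 16 libraries, with 95% Poisson intervals of the tags where a peak was called and 0 where none was. D4 stands above all others, at 42.6 to 53.5 tags, and D16S+ and cKit+ have no peak over any of the 3.

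The D0 and MEF libraries, both unconverted fibroblasts, set the scale for such differences. Pcdhgc3 was at 20.3 and 11.9 tags, Pcdhgc4 at 19.2 and 2.42, and Pcdhgc5 at 27.2 and 14. Between them 3 exons kept a peak, 1 lost it (Pcdhgb6) and 2 gained it (Pcdhb17 and Pcdhga8). From D0 to iPSCs 3 exons kept a peak, 1 lost it (Pcdhgb6) and 3 gained it (Pcdhb11, Pcdhga11 and Pcdhga12), so 4 exons differed there and 3 between the fibroblast libraries. Over 58 isoforms, with 18 that the annotation leaves out, H3.3 lay over 5 in D0, 5 in MEF and 12 in iPSCs. Gene starts that gained and lost a peak made up 16.2% and 9.59% from D0 to iPSCs, and 6.60% and 13.9% from D0 to MEF.

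Other pairs gave like numbers. From D0 to D3 no exon gained an H3.3 peak and Pcdhgb6 lost it, with 5.88% of gene starts gaining and 14.1% losing one. From D6T+ to D6T- Pcdhgc5 gained a peak (16.4% of gene starts, with 3.56% losing one), and from D9T+ to D9T- Pcdhgb6 and Pcdhgc5 lost theirs (5.29%, with 11.7% gaining). From D12S- to D12S+ 3 exons lost a peak (21.1%) and Pcdhb22 gained one (2.34%), and from D16S- to D16S+ all 3 gamma C-types lost theirs (19.2%, with 4.24% gaining). From iPSCs to ESD3 Pcdhb11, Pcdhga11 and Pcdhga12 lost a peak (25.8%) and Pcdhb10 gained one (2.91%), while the 3 gamma C-types kept theirs.

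D4 stood out in the transdifferentiation series. Relative to MEF, Pcdhgb6, Pcdhga11 and Pcdhga12 gained an H3.3 peak and Pcdhb17 and Pcdhga8 lost it. The 3 gamma C-types were at 42.6, 53.5 and 47.7 tags, each at least 2-fold above MEF. Among gene starts, 32.5% gained and 0.818% lost a peak, against 7.50% and 5.0% of the exons, and of gene starts with a peak in both 68.9% were at least 2-fold higher. The share of tags in peaks was 37.2% in D4 and 7.64% in MEF. Between cKit- and cKit+, the single exon with a peak, Pcdhgc3, lost it, as 6.27% of gene starts did, while 5.57% gained one.

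Beyond the exons, H3.3 lay mostly in the gamma cluster (37833989 to 38001527), with 80.7% of the cluster tags in iPSCs and more in the other 15 libraries. It covered 26.4 kb of the clusters in D0, all of it in the gamma cluster, and 15.0 kb of that lay in the 19.7 kb after the Pcdhgc5 exon, which hold the constant exons. The constant part was covered over 12.9 kb in MEF, 17.6 in D4, 10.99 in iPSCs, 7.31 in ESD3, 1.51 in D16S+, 0.50 in cKit+ and 1.00 in cKit-. The gamma C-type and constant exons together held 88.1% of the cluster tags in D0, 85.8% in MEF and 79.4% in D4, against 49.6% in iPSCs and 65.3% in ESD3. The remainder in iPSCs and ESD3 was in part outside gamma, with 11.3% and 7.95% in the alpha cluster and 8.05% and 8.70% in the beta cluster, whereas D0 had no peak in either. MEF however had 5.31% in alpha and 2.25% in beta.

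Relative to all gene bodies, of which H3.3 peaks covered 8.87% in D0, 3.56% in MEF and 6.14% in iPSCs, the gamma cluster was covered 1.78, 3.09 and 2.72 times as densely. For the alpha cluster these ratios were 0, 0.149 and 0.260, and for the beta cluster 0, 0.055 and 0.144. The cluster sums were 410.0 tags in D0 (386.1 to 434.8), 262.1 in MEF (247.6 to 277.2), 405.8 in iPSCs (386.5 to 425.7), 244.6 in ESD3 and 720.0 in D4.

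A fold over input of at least 4 in place of 2 removed many H3.3 calls. It left 4 exons in D0, 0 in D3 and D6T-, 2 in iPSCs (Pcdhb11 and Pcdhgc5), 3 in ESD3, 1 in MEF and 2 in D4. Gene starts with a peak then made up 24.7%, 18.1%, 20%, 7.83%, 11.8%, 0.442% and 11.9% in the same order of libraries. D9T- kept 1 exon and D16S+ 0, against 7.84% and 9.65% of gene starts. With equal numbers of peaks all 3 gamma C-types remained called in D0, D3, D6T-, iPSCs, D12S-, D16S- and D4. Gene starts made up 21%, 17%, 23.3%, 28.2%, 29.7%, 23.4% and 38.8% there. In D12S+, D9T+ and MEF 2 remained, against 20%, 19.4% and 20% of gene starts. In D9T-, ESD3, D6T+ and cKit- 1 remained, against 24.8%, 14.2%, 15.8% and 8.37%. D16S+ and cKit+ had 0, against 17.2% and 7.18%.

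H3K36me3 lay mostly over the gamma A/B stretch, with 74.2% of its cluster tags there in D0. In D0 this mark covered 9 of 40 exons, namely all 6 gamma A/B exons, Pcdhgc4, Pcdhgc5 and Pcdhb22. Of gene starts 11.3% had a peak there, and of gene bodies 48.2%. The next counts in route order were 5 (7.06% of gene starts), 6 (4.66%) and 11 (12.4%), and then 0 in the last 3 libraries (1.12%, 0.96% and 7.55%). Gene bodies, the closer measure for this mark, held a peak in 43.1%, 37.3%, 48.9%, 22.6%, 24.9% and 33.5%. No alpha exon, no alpha C-type and not Pcdhgc3 carried a peak in any library. In D0, D6T- and D9T- Pcdhgc3 thus lay without a peak between marked gamma A/B exons and Pcdhgc4. The stretch from Pcdhga12 to Pcdhgc3 was itself covered over only 43.0%, 3.43% and 25.5% in these libraries. In D3 Pcdhgc4 and Pcdhgc5 had no peak either.

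The levels, summed over exons of unequal length within broad peaks, give no order among these exons. Pcdhga12 held 81.6 tags in D0 (70.9 to 94.0), 44.2 in D3, 30.3 in D6T- and 81.3 in D9T-. Pcdhga8 held 71.3, 43.9, 11.55 and 62.8 tags, and Pcdhga11 70.7, 29.05, 11.5 and 71.3. Pcdhga3, the first annotated exon of the gamma cluster, held 24.4 tags in D0 and 38.3 in D9T- and no peak in D3 and D6T-. Pcdhgc5 held 43.0 and 38.4 tags in D0 and D9T-. D0 and D9T- thus held similar levels at the deposited threshold, with D3 and D6T- lower.

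This was a broad domain. From the Pcdhga3 to the Pcdhga12 exon (37833989 to 37928194, 94.2 kb), H3K36me3 peaks covered 87.7 kb or 93.1% in D0, 30.03 kb in D3, 9.90 kb in D6T- and 80.9 kb or 85.8% in D9T-. In D12S+ 0.50 kb was covered, and in D16S+ and iPSCs none. The gamma constant part, where H3.3 also lay, was covered over 59.6% in D0 and 44.6% in D9T-. The gamma C-type stretch was covered over 40.4% and 28.4%. The tag sum over the 3 clusters was 2662 in D0, 585 in D3, 174 in D6T- and 2298 in D9T-, 7.32 in D12S+ and 45.05 in D16S+, with no peak in iPSCs. Relative to gene bodies the gamma cluster was covered 5.18 times as densely in D0, 2.93 in D3, 1.72 in D6T- and 3.99 in D9T-.

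The share of tags in peaks moved with these values, in route order 31.3%, 14.1%, 7.50%, 42.4%, 1.07%, 1.99% and 2.88%. Of gene bodies 48.2% had an H3K36me3 peak in D0 and 33.5% in iPSCs. Of the 18 genes among or within 200 kb of the clusters, 15 had one over the body in D0 and 10 in iPSCs. Their median was 32.5 tags over the body in D0 and 3.52 in iPSCs. From D0 to iPSCs 9 exons lost a peak, 22.5% of them, and 7.67% of gene starts did, with 3.95% gaining one. Losses over gene bodies were not counted. At a fold of at least 8 the covered length of the clusters was 56.9 kb in D0, 1.79 kb in D3, 1.70 kb in D6T- and 7.56 kb in D9T-, so D0 and D9T- then differed. The exon counts at that limit were 6, 0, 1 and 3, against 1.55%, 0.63%, 0.299% and 4.35% of gene starts. With equal numbers of peaks the lengths were 109.9, 18.3, 2.24 and 67.4 kb, with D9T- again above D3 and D6T-.

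The 3 marks seldom met on 1 exon. In D0, 3 exons carried all 3 (Pcdhgb6, Pcdhgc4 and Pcdhgc5), 6 carried H3K4me3 with H3K36me3, 10 carried H3K4me3 alone and 20 none. In iPSCs 6 carried H3K4me3 with H3.3, 30 H3K4me3 alone and 4 none. Of the exons with H3K4me3, 20% also had an H3.3 peak in D0 and 16.7% in iPSCs, whereas of all gene starts with H3K4me3 51.5% and 63.0% did. H3.3 without H3K4me3 was seen at 1 exon, in D3, and the exons that gained H3K4me3 in iPSCs included 1 with H3.3 (Pcdhb11).

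The annotation leaves out 18 isoforms that RefSeq names at the same distances, found in the mm9 sequence as open reading frames of at least 650 codons. They are Pcdha5 to Pcdha8, Pcdhb20 and 13 gamma A and B isoforms. In route order H3K4me3 lay over 11, 10, 13, 10, 9, 7 and 17 of them, H3K36me3 over 13 in D0 and 0 in iPSCs, and H3.3 over 1 in D0 and 6 in iPSCs. Pcdha6, Pcdha7 and Pcdha8 had H3K4me3 in iPSCs only, at 9.91, 7.69 and 10.3 tags. Counting all 58 isoforms, H3K4me3 lay over 31 in D0 and 53 in iPSCs. Of gene starts 64.3% and 62.7% held an H3K4me3 peak in D0 and iPSCs. For H3.3 these shares were 35.7% and 42.3%, and for H3K36me3 11.3% and 7.55%. A call needed 1 bp of overlap, and that of H3.3 at Pcdhga7 in iPSCs covered 0.008 kb with 0.083 tags. The counts of these isoforms are given at the deposited threshold only.

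Genes between and beside the clusters, and Gm10545 within the alpha cluster, served as a local comparison. Taf7, a general transcription factor subunit that sits between the beta and gamma clusters, held 89.5 H3K4me3 tags over its body in D0 and 78.4 in iPSCs. Diap1, an actin regulator just after the gamma cluster, held 291 and 115, and Hdac3, a histone deacetylase, 129 and 40.1. H3.3 at Diap1 was 312 tags in D0, 111 in MEF, 244 in iPSCs and 147 in ESD3. Of 18 genes among or within 200 kb of the clusters, 14 had H3K4me3 at the start in D0 and 16 in iPSCs, where 64.3% and 62.7% of all gene starts did. The start window of Gm10545 overlaps the Pcdha12 peak in both libraries, so that peak is counted there too.

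Of 12 non-clustered protocadherins, which have single promoters, 10 had H3K4me3 in the start window in D0 and in iPSCs, and 8 and 4 had H3.3 over the body. Over all genes the shares were 64.3% and 62.7% for H3K4me3 starts and 57.8% and 57.1% for H3.3 bodies, and they apply to the lists that follow too. Pcdh7 held 809 H3K4me3 tags over its body in D0 and 52.0 in iPSCs, and Pcdh18 323 and 18.6. H3K36me3 lay over 5 in D0 and 1 in iPSCs, against 48.2% and 33.5% of gene bodies. Of 14 regulators of the clusters, among them Ctcf, the cohesin subunits Rad21, Smc1a and Smc3, and the methyltransferases Dnmt1, Dnmt3a and Dnmt3b, 13 had H3K4me3 in the start window in D0 and 14 in iPSCs, and 14 and 12 had H3.3 over the body. Dnmt3b, which methylates protocadherin promoters, held 0.23 H3.3 tags in its start window in D0, no peak in MEF, 32.6 tags in iPSCs and 4.34 in ESD3. All 10 intracellular partners, such as Ptk2 and Axin1, had H3K4me3 in the start window and H3.3 over the body in D0 and in iPSCs.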

How the data were processed

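ChIP-Seq was read from the deposited HOMER peak lists of 30 libraries, 16 of H3.3 and 7 each of H3K4me3 and H3K36me3. The authors mapped reads to mm9 with STAR, removed tags at more than 1 locus, and called peaks per library against input with findPeaks in histone style (versions are not given in the sources used here). Per the file headers, the tag signal (Normalized Tag Count) is scaled to 10 M tags and is neither divided by length nor corrected for input. The deposited fold over input, a ratio, was at least 2 for H3.3 and 4 for the other marks, and the deposited p-value over input at most 0.0001. In 7 lists tags had been scaled to input, so input was set to the ChIP scale through the ratio of control to total tags of each peak. Lists hold positions above these limits only, so an exon without a peak has a level below them, not 0.

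Overlaps of at least 1 bp, covered length and tags apportioned by length were computed with Python 3.11.15, numpy and pandas, and the overlap code was tested on simulated data. Variable exons came from the longest coding exon of each transcript. Their isoform names came from RefSeq, by distance from the start of Pcdhb1 within 1000 bp (34 of 40 exact, the largest offset 291 bp). Positions and gene names are mm9 and GENCODE vM1. Older symbols stood for 2 listed genes (Spi1, Map2), and Sox1 was not analysed here. The background was the first 2500 bp, or the body, of all 22380 genes.

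With 1 library per group there was no test. The members and lists were chosen with earlier results of these data known. Named were the C-type isoforms, the 5 other exons with H3.3 in most libraries, the 3 highest for H3.3 in D0, iPSCs and ESD3 and for H3K4me3 in D0 and iPSCs, and the genes within 200 kb; others were named after their values were seen. Alternatives were a higher fold, equal numbers of peaks (ranked by normalized tag count), 500 bp of cover, the 2500-bp window, whole peaks and input subtraction. Sequence of the clusters is not shown, and the 16 input libraries entered only through the peak lists.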

Additional observations from a re-analysis of the deposited data

How the results depend on the processing

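Peak calls over these exons were weak, and the fold and the number of peaks kept moved many counts. For those, values are given below where they moved by over 1.5 times for a count or beyond the counting interval otherwise, and the cause was not tested. The 2500-bp window moved none of 30 values. No paired analysis was possible because each group has 1 library and no result comes from a test, and there was no replicate to leave out. With at least 500 bp covered, H3.3 exon counts were 1 in D6T-, 1 in D9T- and 3 in D12S-.

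At a fold of at least 4, H3.3 exon counts were 0 in D3, D6T- and cKit-, 1 in D9T-, D12S+ and MEF, and 2 in iPSCs and D4. In the same order 18.1%, 20%, 0.0313%, 7.84%, 14.1%, 0.442%, 7.83% and 11.9% of gene starts had a peak. From D3 to D12S+ the covered lengths were 5.92, 9.96, 8.26 and 5.55 kb, with 7.325 kb in iPSCs, 9.14 in ESD3, 0.501 in MEF, 28.2 in D4, and 0 in cKit+ and cKit-.

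At a fold of at least 8, H3K4me3 exon counts were 9 in D0, 4 in D6T-, 5 in D9T-, D12S+ and iPSCs, and 0 in D16S+. The matching shares of gene starts were 59.9%, 58.6%, 46.9%, 19.2%, 24.7% and 4.42%. The H3K4me3 length in route order was 17.2, 14.9, 15.4, 12.8, 3.78, 0 and 6.07 kb, and that of H3K36me3 was 56.9, 1.79, 1.70, 7.56, 0 and 0 kb up to D16S+. Exons with H3K4me3 in the start part were then 7 in D0 and 1 in iPSCs, and in the later part 4 in iPSCs. H3K36me3 exon counts were 6 in D0 (1.55% of gene starts), 0 in D3 (0.63%), 1 in D6T- (0.299%) and 3 in D9T- (4.35%). The split into parts, its alternatives and this last count were chosen after seeing the data.

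With equal numbers of top-scoring peaks, H3.3 exon counts were 1 in D9T- and D6T+, 2 in ESD3 and MEF, and 3 in iPSCs, D12S- and D4, with 10.5 kb covered in ESD3. In that order of libraries 24.8%, 15.8%, 14.2%, 20%, 28.2%, 29.7% and 38.8% of gene starts had an H3.3 peak. H3K4me3 exon counts were 4 in D0 and D3, 3 in D6T- and D9T-, 10 in D12S+ and 19 in iPSCs, with 24.5 kb covered in D0, 16.2 in D6T-, 12.8 in D9T- and 42.4 in iPSCs. Gene starts with H3K4me3 made up 60.8%, 60.9%, 59.9%, 59.9%, 58.5% and 58.9% in the order of these counts. H3K36me3 exon counts were 1 in D6T- and 4 in D9T-, against 2.48% and 7.65% of gene starts. The mark covered 18.3 kb in D3, 2.24 in D6T-, 67.4 in D9T- and 1.655 in D16S+. Start-part exons were 4 in D0 and later-part exons 8 in iPSCs.

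With input tags subtracted, the H3.3 sums from D0 to D12S+ were 325.8, 188.4, 237.6, 187.8 and 130.1, with 291.6 in iPSCs, 184.1 in ESD3, 161.5 in MEF, 527.6 in D4, 13.8 in cKit+ and 12.8 in cKit-. For D6T+, D9T+, D12S- and D16S- they were 186.6, 236.3, 373.7 and 267.4. The H3K4me3 sums in route order were 1163, 690.8, 979.8, 634.0, 431.8, 160.6 and 1008, and the H3K36me3 sums up to D9T- were 2288, 483.1, 144.4 and 1955. Counting whole peaks gave H3.3 sums of 204.1 in D12S+ and 1015 in D4 and H3K4me3 sums of 1131 in D6T- and 760.6 in D9T-.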
